A study of Mus musculus with 5 samples.

Results

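Cohesin is a ring-shaped protein complex that holds sister chromatids together and shapes chromosomes into loops. The results here are for 9 mouse genes of this complex and its regulators, Rad21, Smc1a, Smc3, Stag1, Stag2, Nipbl, Pds5a, Pds5b and Ctcf, in whole blood. They were measured by 29 of the 45101 probe sets of an Affymetrix expression array, namely every probe set whose annotation gives a single gene symbol that is one of the 9. RNA came from adult female mice of 2 first-generation crosses, with 1 array per sample. AKRxFVB F1 animals carry 1 genome of AKR/J and 1 of FVB/NJ (2 samples), and DBAxFVB F1 animals carry 1 genome of DBA/2J and 1 of FVB/NJ (3 samples), so the FVB/NJ genome is common to all samples. The labels name no treatment other than Avertin anaesthesia at killing. Blood was taken by cardiac puncture, and the aim of the study was to find basal expression differences between these genotypes. Whether the samples within a cross are separate animals is not stated in the labels, so the spread between arrays may be technical. The set of genes was chosen by function, but after the difference of Rad21 between the crosses had been measured on these same arrays, so it was in part selected on that value. The values of all 29 probe sets in this contrast are therefore given as a description, without a test.

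Smc1a and Smc3 are long coiled-coil ATPases that pair to form the arms of the ring, and Rad21 is the subunit that closes it and is cut by separase when cells divide. Stag1 and Stag2 are alternative subunits bound to Rad21, so a ring holds one or the other. Nipbl loads cohesin on DNA and drives loop extrusion, Pds5a and Pds5b bind Rad21 and regulate release and acetylation of the ring, and Ctcf is the zinc finger DNA-binding protein at which extruding rings stop. In lymphocytes these loops bring distant gene segments of the antigen receptor loci together, and STAG2 and RAD21 are recurrently mutated in human myeloid leukaemia. In blood, which is a mixture of cells, a lower signal can come from fewer cells of a type or from less RNA per cell, and these cannot be told apart.

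Promoter sequences of RefSeq (build GRCm38.p6) were found for 6 of the 9 genes: Smc1a, Smc3, Stag1, Pds5a, Pds5b and Ctcf. The windows below run from 250 bases before the annotated start to 30 bases after it and are written 5′ to 3′ on the gene's strand. They are shown for Smc3, Ctcf and Pds5a, whose lead probe set separated the crosses, and for Pds5b, the paralogue of Pds5a whose lead probe set did not. Capitals mark matches to AANATGGC, the core of the motif bound by the zinc finger factor YY1, on either strand (GCCATNTT on the other).
Smc3 promoter (chr19:53600146-53600425, plus strand): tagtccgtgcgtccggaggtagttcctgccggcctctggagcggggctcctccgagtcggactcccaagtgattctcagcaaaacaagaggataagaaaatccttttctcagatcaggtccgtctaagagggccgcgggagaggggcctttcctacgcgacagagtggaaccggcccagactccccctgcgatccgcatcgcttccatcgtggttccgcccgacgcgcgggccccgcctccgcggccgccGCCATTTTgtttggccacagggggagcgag
Ctcf promoter (chr8:105636288-105636567, plus strand): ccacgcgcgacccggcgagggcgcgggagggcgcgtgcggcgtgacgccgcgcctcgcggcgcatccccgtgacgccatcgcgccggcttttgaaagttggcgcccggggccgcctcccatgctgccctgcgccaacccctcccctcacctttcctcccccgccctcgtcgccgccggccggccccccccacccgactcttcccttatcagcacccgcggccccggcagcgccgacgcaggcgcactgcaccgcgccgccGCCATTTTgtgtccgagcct
Pds5a promoter (chr5:65698207-65698486, minus strand): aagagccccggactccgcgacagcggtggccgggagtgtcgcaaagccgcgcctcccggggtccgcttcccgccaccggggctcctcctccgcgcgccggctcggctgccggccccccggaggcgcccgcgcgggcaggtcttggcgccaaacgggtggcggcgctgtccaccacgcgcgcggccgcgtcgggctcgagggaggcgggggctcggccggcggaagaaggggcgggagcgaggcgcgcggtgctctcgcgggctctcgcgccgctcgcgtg
Pds5b promoter (chr5:150673577-150673856, plus strand): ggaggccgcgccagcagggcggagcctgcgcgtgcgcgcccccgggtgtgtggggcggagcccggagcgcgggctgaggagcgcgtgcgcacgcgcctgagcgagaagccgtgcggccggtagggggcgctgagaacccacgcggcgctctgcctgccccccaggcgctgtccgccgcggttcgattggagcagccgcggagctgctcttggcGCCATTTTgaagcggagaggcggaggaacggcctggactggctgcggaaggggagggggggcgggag
The YY1 core was present in 4 of the 6 windows, and 5.22% of all 32851 windows of that length hold it. The motif was picked after the sequences had been read, so its share in these windows is no test against that of all windows. It overlaps none of the other 3 motifs searched. In Smc3 the match begins at the annotated start itself, in Ctcf 10 bases after it, in Pds5b 37 bases before it and in Stag1 202 bases before it. The GC box GGGCGG was present in all 6 windows (34.7% of all windows), the CCAAT box CCAAT in 3 (36.1%) and the ETS core CCGGAAG in 0 (8.45%), each searched on both strands. All 6 windows were rich in CpG, with 19 in Smc1a, 28 in Smc3, 38 in Stag1 and Pds5b, 45 in Ctcf and 51 in Pds5a, against a median of 6 over all windows. Of all windows, 25.1% held 19 or more, so the motif shares of all windows come from a set poorer in CpG. A match is a description of the letters and says nothing on binding in these samples.

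For each gene the probe set with the highest mean over the 5 arrays is called its lead probe set. This mean includes the higher cross, so the rule leans towards probe sets that are high in one cross. Of the 9 lead probe sets 8 read higher in AKRxFVB F1 blood, where 41.3% of the lead probe sets of all 18193 named genes did. The median difference of the 9, AKRxFVB F1 minus DBAxFVB F1 on the log2 scale, was 0.43, against -0.05 for the lead probe sets of all named genes. Stag2, Rad21 and Ctcf stood apart with a difference of a fold of 2 or more, and 1.54% of all lead probe sets reached that fold in this direction. In 5 lead probe sets, those of Rad21, Smc3, Stag2, Pds5a and Ctcf, each AKRxFVB F1 array read above each DBAxFVB F1 array, a pattern seen in 10.6% of the lead probe sets of all named genes. With lead probe sets taken by the DBAxFVB F1 mean alone, a rule added after the data were seen that leans the other way, other probe sets stood for Rad21 (1416162_at) and Ctcf (1449042_at). Then 6 of 9 read higher in AKRxFVB F1, 1 by a fold of 2 or more (Stag2), and the median was 0.14. Of these 9, 3 lay without overlap with AKRxFVB F1 higher and 1 (Rad21) with DBAxFVB F1 higher. With the AKRxFVB F1 mean alone 9 of 9 read higher, 6 lay without overlap with AKRxFVB F1 higher, and the median was 0.43. The shares of all named genes given above are for the mean over the 5 arrays. They were not computed under either of these other rules. The members were proposed with this contrast known, so the counts and shares are printed beside each other and nothing is read from them. In the limma fit across 22519 probe sets, 0 passed a Benjamini-Hochberg adjusted p below 0.05 (0% of those tested, none of them a member). The smallest adjusted p on the array was 0.131, and 2337 probe sets had an unadjusted p below 0.05. The error given with each difference is the moderated standard error of limma.

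**Figure D1:**
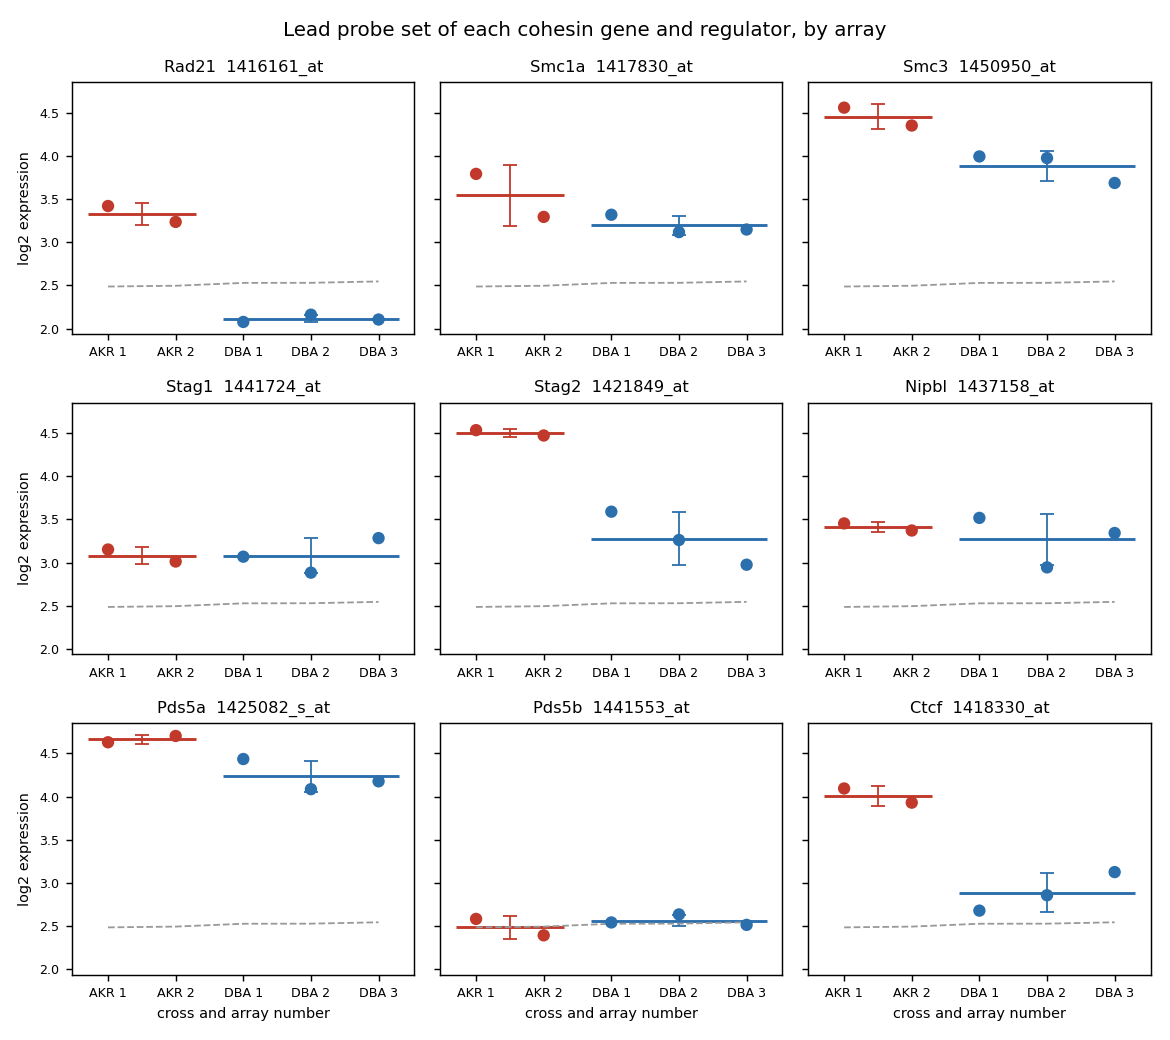
Log2 expression of the lead probe set of each of the 9 genes on the 5 arrays (points), with AKRxFVB F1 in red and DBAxFVB F1 in blue; horizontal lines are group means, bars 1 SD, and the dashed line joins the array medians. Rad21, Stag2 and Ctcf show the widest gaps between the crosses, and Rad21 lies below the array medians on all 3 DBAxFVB F1 arrays.

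Rad21, the subunit that closes the ring, read 3.42 and 3.23 on the AKRxFVB F1 arrays with probe set 1416161_at, against 2.08, 2.16 and 2.10 on the DBAxFVB F1 arrays. The crosses did not overlap and were 1.07 apart at their nearest arrays. AKRxFVB F1 averaged 3.33 ± 0.13 (SD, n = 2), against 2.11 ± 0.04 (SD, n = 3) for DBAxFVB F1, and the difference was 1.21 ± 0.14 (SE). All 3 DBAxFVB F1 values lay below their array medians, which were 2.53 to 2.55, so the DBAxFVB F1 level is at the low end of the scale, where no limit of detection is stated, and the probe set passed the filter on low values only through the AKRxFVB F1 arrays. The second Rad21 probe set, 1416162_at, which the annotation ties to the same source sequence, read 2.40 and 2.55 in AKRxFVB F1, against 2.68, 2.58 and 2.67 in DBAxFVB F1. Its crosses did not overlap either, but lay the other way round, with a gap of 0.03 and a difference of -0.17 ± 0.14. The third, 1455938_x_at, whose suffix marks probes that may also bind other transcripts, read 2.54 and 1.94 in AKRxFVB F1, against 1.98, 1.995 and 1.99 in DBAxFVB F1. Here AKRxFVB F1 array 1 alone was high, the crosses overlapped, and without that array the difference was -0.05 in place of 0.25. The lead rule chose 1416161_at narrowly, with a mean over the arrays of 2.60 against 2.575 for 1416162_at, so the result for Rad21 depends on which of these probe sets stands for the gene.

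Of the ATPase arms of the ring, Smc3 separated the crosses with 1 of its probe sets and Smc1a did not with its lead. Smc3 read 4.56 and 4.35 in AKRxFVB F1 with 1450950_at, against 3.99, 3.97 and 3.69 in DBAxFVB F1. Its crosses did not overlap, and the difference was 0.57 ± 0.20, a fold of 1.485. The other Smc3 probe set, 1450951_at, read 2.82 and 3.08 in AKRxFVB F1, against 2.71, 3.17 and 3.68 in DBAxFVB F1, with overlapping crosses and a difference of -0.23 ± 0.27. DBAxFVB F1 array 3 was the highest there and the lowest with 1450950_at, and without it the difference of 1450951_at was 0.01.

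Smc1a, the partner of Smc3, read 3.79 and 3.29 in AKRxFVB F1 with 1417830_at, against 3.32, 3.12 and 3.15 in DBAxFVB F1. AKRxFVB F1 array 1 was high and array 2 lay among the DBAxFVB F1 values, so the crosses overlapped. The difference was 0.35 ± 0.20, or 0.10 without AKRxFVB F1 array 1 and 0.60 without AKRxFVB F1 array 2. The remaining Smc1a probe sets lay the other way. Probe set 1417832_at read 2.71 and 2.91 in AKRxFVB F1, against 3.24, 2.945 and 2.997 in DBAxFVB F1, a difference of -0.25 ± 0.16. Probe set 1417831_at read 2.42 and 2.51 in AKRxFVB F1, against 2.65, 2.71 and 2.99 in DBAxFVB F1, a difference of -0.32 ± 0.16. In neither did the crosses overlap, with gaps of 0.03 and 0.14, so the only non-overlapping probe sets of Smc1a were higher in DBAxFVB F1.

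The alternative subunits Stag1 and Stag2 gave unlike values. Stag2, the X-linked form, read 4.53 and 4.47 in AKRxFVB F1 with 1421849_at, against 3.59, 3.26 and 2.97 in DBAxFVB F1. The AKRxFVB F1 arrays lay close together and above all DBAxFVB F1 arrays, with a gap of 0.88. AKRxFVB F1 averaged 4.50 ± 0.04 (SD, n = 2), against 3.275 ± 0.31 (SD, n = 3) for DBAxFVB F1, and the difference of 1.23 ± 0.22 was the widest among the 29 probe sets. The other Stag2 probe set, 1450396_at, read 2.61 and 2.78 in AKRxFVB F1, against 2.98, 2.58 and 3.18 in DBAxFVB F1, with overlapping crosses and a difference of -0.22 ± 0.20.

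Stag1 had 6 probe sets, the most of any member. Its lead, 1441724_at, read 3.15 and 3.01 in AKRxFVB F1, against 3.07, 2.88 and 3.28 in DBAxFVB F1, a difference of 0.00 ± 0.17 with all values mixed. Probe set 1434189_at read 3.05 and 3.005 in AKRxFVB F1, against 2.62, 2.39 and 2.497 in DBAxFVB F1, without overlap, a difference of 0.52 ± 0.14. This was the widest difference among the 20 probe sets that were not leads. No overlap was seen either with 1431921_a_at, at 3.47 and 3.05 in AKRxFVB F1, against 3.02, 2.80 and 2.77 in DBAxFVB F1 (difference 0.40 ± 0.18), where the gap was 0.03 and AKRxFVB F1 array 1 was the high value. They did not overlap with 1450420_at, at 2.73 and 2.499 in AKRxFVB F1, against 2.38, 2.31 and 2.22 in DBAxFVB F1 (difference 0.31 ± 0.14). The crosses overlapped with 1421939_a_at (difference 0.23 ± 0.22) and 1421940_at (difference -0.13 ± 0.17). Thus 5 of 6 Stag1 probe sets read higher in AKRxFVB F1, by less than a fold of 1.5 in each, and the lead probe set was not among those without overlap.

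The loader and release factors showed small differences. Nipbl, the loader, read 3.45 and 3.37 in AKRxFVB F1 with 1437158_at, against 3.52, 2.94 and 3.34 in DBAxFVB F1. DBAxFVB F1 array 2 was low and array 1 was the highest of the 5, so the crosses overlapped, and the difference was 0.14 ± 0.20. It was -0.02 without DBAxFVB F1 array 2. All 5 Nipbl probe sets read higher in AKRxFVB F1, by 0.02 to 0.26, and in the deposited values Nipbl was the only member whose probe sets all had 1 sign. No overlap was seen in 1 of them, 1453576_at, with 2.49 and 2.58 in AKRxFVB F1, against 2.47, 2.23 and 2.40 in DBAxFVB F1 and a gap of 0.02. That probe set lay under the filter on low values.

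Pds5a read 4.63 and 4.70 in AKRxFVB F1 with 1425082_s_at, against 4.44, 4.09 and 4.18 in DBAxFVB F1. A gap of 0.19 separated the crosses, and the difference was 0.43 ± 0.21. The suffix of this probe set marks probes shared by several transcripts, which can belong to more than 1 gene, so the value may not be of Pds5a alone. The other Pds5a probe sets gave differences of -0.06 ± 0.17 (1441238_at) and 0.00 ± 0.11 (1442731_at), with overlapping crosses. Pds5b, its paralogue, read 2.58 and 2.39 in AKRxFVB F1 with 1441553_at, against 2.54, 2.64 and 2.52 in DBAxFVB F1, a difference of -0.08 ± 0.14. It was the only lead probe set with a lower AKRxFVB F1 mean, and all its values lay near the array medians of 2.49 to 2.55. The crosses overlapped in the other Pds5b probe sets too, with differences of -0.01 ± 0.21 (1436161_at) and 0.27 ± 0.19 (1435242_at), and the means of both were below the filter.

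Ctcf, which sets the borders of loops, read 4.09 and 3.93 in AKRxFVB F1 with 1418330_at, against 2.68, 2.86 and 3.13 in DBAxFVB F1. The crosses did not overlap and were 0.80 apart at their nearest arrays. AKRxFVB F1 averaged 4.01 ± 0.12 (SD, n = 2), against 2.89 ± 0.22 (SD, n = 3) for DBAxFVB F1, and the difference was 1.12 ± 0.19, a fold of 2.18. The second Ctcf probe set, 1449042_at, is tied to the same source sequence and read 3.15 and 2.95 in AKRxFVB F1, against 3.30, 2.86 and 3.003 in DBAxFVB F1. Its values were mixed between the crosses, with a difference of -0.00 ± 0.18.

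**Figure D2:**
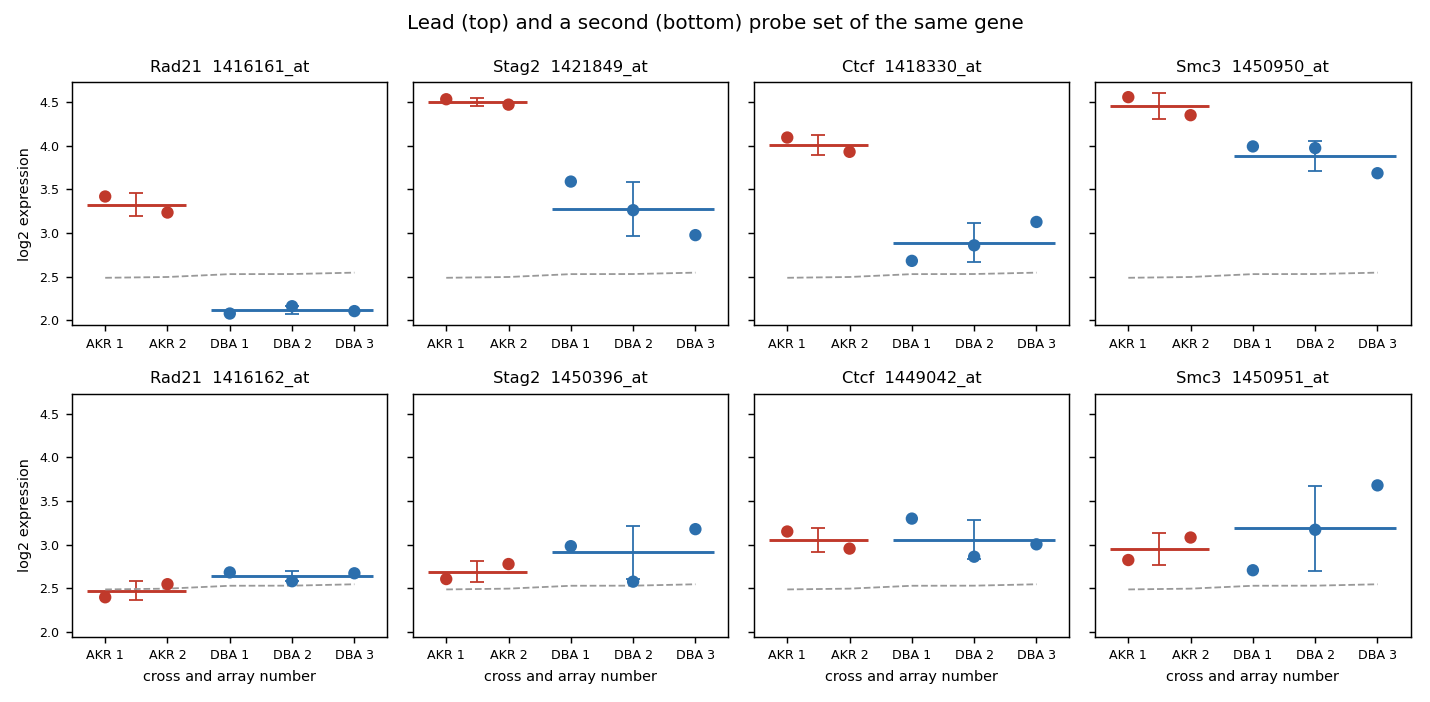
Log2 expression on the 5 arrays for the lead probe set (top) and the probe set with the next highest mean (bottom) of Rad21, Stag2, Ctcf and Smc3, AKRxFVB F1 in red and DBAxFVB F1 in blue, with group means, 1 SD bars and the array medians as a dashed line. In all 4 genes the top probe set separates the crosses and the bottom one does not show the same direction.

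Probe sets of a gene often had differences of opposite sign. In 8 of the 9 genes the differences had both signs, or in 7 after quantile normalization or median centring and 6 after cyclic loess normalization, since several lay close to 0. Both signs were present in 58.2% of the 9010 genes on the array that have several probe sets. The shares of genes given here are not matched for the number of probe sets per gene, which was 2 to 6 in the members. For Rad21, Stag2 and Ctcf, whose lead probe sets differed by a fold of 2 or more, another probe set of the gene read lower in AKRxFVB F1 in 3 of 3, against 131 of 224 genes (58.5%) with such a lead probe set on the whole array. For Ctcf that other probe set was at -0.00 and above 0 after each of the 3 other normalizations, where the count was 2 of 3. A second probe set with a fold of 2 or more was present in 0 of 3, against 49 of 224 genes (21.9%). Over all 29 probe sets, 19 read higher in AKRxFVB F1 and the median difference was 0.14, where 44.2% of all non-control probe sets read higher and their median was -0.03. The crosses did not overlap in 9 probe sets higher in AKRxFVB F1 and in 3 higher in DBAxFVB F1, patterns that 11.1% and 14.6% of all non-control probe sets showed. The 20 probe sets that were not leads had a median difference of 0.01, with 11 higher in AKRxFVB F1. Of the 29, 21 passed the filter on low values (a mean over the arrays at or above 2.51) and 8 did not. When a gene was represented by the mean of its probe sets, the median over the 9 genes was 0.17, in place of 0.43 with the lead probe sets, and Smc1a was at -0.07. The gene means were then highest for Ctcf at 0.56, Stag2 at 0.50 and Rad21 at 0.43.

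**Figure D3:**
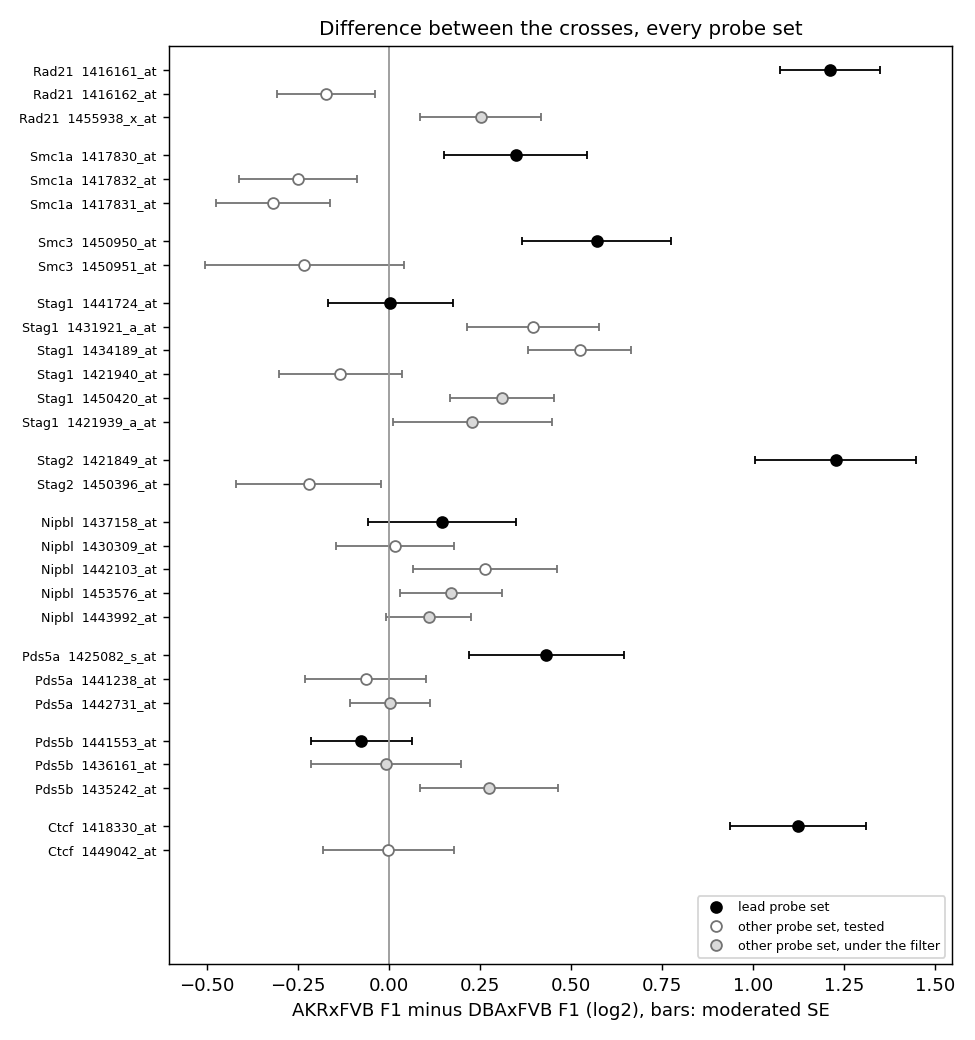
Difference between the crosses (AKRxFVB F1 minus DBAxFVB F1, log2) for all 29 probe sets, ordered by gene and by mean level, with limma's moderated standard errors as bars; black points are lead probe sets, open points other tested ones and grey points those under the filter. The 3 points to the right of 1 are the lead probe sets of Stag2, Rad21 and Ctcf, and all other points lie between -0.32 and 0.57.

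Other genes of the pathway were taken from 3 lists, of which 25 of 41 entries had a tested probe set. None passed in the limma fit (0 higher and 0 lower, smallest adjusted p = 0.131), while 6 had an unadjusted p below 0.05, all with higher AKRxFVB F1 values, where 6.79% of all tested probe sets were in that class. Among 7 tested cohesin genes outside the set, 4 read higher in AKRxFVB F1 and the median difference was 0.01, or -0.04 after quantile and -0.02 after cyclic loess normalization. Esco1, which acetylates Smc3, read 3.08 and 3.40 in AKRxFVB F1, against 2.56, 2.575 and 2.19 in DBAxFVB F1, without overlap (difference 0.80 ± 0.18, limma adjusted p = 0.207). Its DBAxFVB F1 mean of 2.44 lay below the filter of 2.51, so Esco1 was tested only through its AKRxFVB F1 values. It is among the 6 genes counted above, so that count leans towards AKRxFVB F1 in part through the filter. Mau2, the partner of Nipbl, and Wapl, which opens the ring, differed by 0.04 ± 0.25 and 0.01 ± 0.40. Smc1b, a form of Smc1 used in meiosis, differed by -0.37 ± 0.20, and Sgo1, which protects centromeric cohesin, by -0.08 ± 0.14 (limma adjusted p = 0.562 and 0.875). Of the 7, 1 lay without overlap with AKRxFVB F1 higher (Esco1) and 1 with DBAxFVB F1 higher (Smc1b). These patterns were seen in 11.1% and 14.6% of all non-control probe sets.

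Condensin and Smc5/6 complex genes were split evenly, with 4 of 8 tested members higher in AKRxFVB F1 and a median of 0.01. Smc4, an ATPase of condensin, read 5.70 and 6.29 in AKRxFVB F1, against 5.385, 4.88 and 3.645 in DBAxFVB F1 (difference 1.36 ± 0.49, limma adjusted p = 0.405). DBAxFVB F1 array 3 was the low value, and without it the difference was 0.86. Smc6 differed by 0.29 ± 0.16 and the condensin gene Ncaph2 by -0.32 ± 0.34 (limma adjusted p = 0.574 and 0.761). Without DBAxFVB F1 array 3 the difference of Ncaph2 was -0.02.

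Partners of Ctcf and other genome folding genes read mostly higher in AKRxFVB F1, with 9 of 10 tested members and a median of 0.41, against -0.04 over all tested probe sets, and none passed. Top2b, the topoisomerase found at Ctcf-bound loop borders, read 4.17 and 4.45 in AKRxFVB F1, against 3.21, 2.998 and 3.002 in DBAxFVB F1 (difference 1.24 ± 0.18, limma adjusted p = 0.131). Yy1, a zinc finger factor, read 5.175 and 5.08 in AKRxFVB F1, against 4.04, 3.86 and 3.24 in DBAxFVB F1 (difference 1.42 ± 0.27, limma adjusted p = 0.16). Whether the Yy1 level bears on the motif matches in the promoters was not tested. Parp1, the poly(ADP-ribose) polymerase, differed by 0.66 ± 0.19 (limma adjusted p = 0.298). No overlap was seen in these 3 genes. Over the list, 4 of 10 lay without overlap with AKRxFVB F1 higher and 1 with DBAxFVB F1 higher. Of all non-control probe sets, 11.1% and 14.6% showed these patterns. The 1 with DBAxFVB F1 higher was Maz, a zinc finger protein and the single member with a lower AKRxFVB F1 mean (difference -0.25 ± 0.19).

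Across the arrays, the lead probe sets of the 9 genes deviated from their own means by a median of 0.45 and 0.24 on the AKRxFVB F1 arrays, against -0.02, -0.32 and -0.21 on the DBAxFVB F1 arrays. AKRxFVB F1 array 1 was above the mean in 9 of 9, and held the highest value in 5. DBAxFVB F1 array 2 was above it in 1 and held the lowest value in 4. The members lay at distances of 0.235 (Pds5a) to 0.85 (Stag2) from this median profile, as Euclidean distance of centred log2 values over the 5 arrays. The genes outside the set nearest to it were Pcmtd1 (0.09), Ripk3 (0.12), Ldha (0.125), Cstf2 (0.13) and Cycs (0.13), with differences of 0.44 to 0.56 between the crosses.

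Properties of the arrays differed as well. DBAxFVB F1 array 3 stood apart: its 18 hybridisation control probe sets had a median of 7.99, against 10.01 to 10.12 on the other 4 arrays, and the 3-prime over 5-prime difference of control probe sets, which reflects RNA quality, was highest there, at 1.32 for Actb and 1.33 for Gapdh. For Actb it was 1.22 and 1.03 on the AKRxFVB F1 arrays, against 0.82 and 0.68 on DBAxFVB F1 arrays 1 and 2, and for Gapdh 1.04 and 0.73 against 0.62 and 0.58, so both AKRxFVB F1 arrays lay above those 2 DBAxFVB F1 arrays. Without this array the lead differences were 1.21 for Rad21, 1.08 for Stag2, 1.24 for Ctcf and 0.47 for Smc3, against 1.21, 1.23, 1.12 and 0.57 with it. In the range of the members, probe sets with means of 2 to 2.5, 2.5 to 3, 3 to 4 and 4 to 5 had median differences of -0.04, -0.07, -0.07 and -0.03, against 0.56 for the bright ones with means of 8 to 10. All 5 tested housekeeping genes read higher in AKRxFVB F1, with a median of 0.80 (Hprt at 1.13 ± 0.25), or 0.365 after quantile and 0.43 after cyclic loess normalization, and their summed linear signal was 3356 and 4791 in AKRxFVB F1, against 1589 to 3362 in DBAxFVB F1.

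Markers of blood cell types differed between the arrays as well. Of 11 tested B cell markers 10 read higher in AKRxFVB F1, and the summed linear signal of the list was 721 and 326.3 in AKRxFVB F1, against 162.8 to 292.6 in DBAxFVB F1. Of 10 tested T cell markers 8 read higher, with sums of 228.5 and 247.1 in AKRxFVB F1, against 140 to 188.2 in DBAxFVB F1. Of 9 monocyte markers 6 read higher (median 0.43, or 0.10 after quantile and 0.19 after cyclic loess normalization), with sums of 1152 and 933.6 in AKRxFVB F1, against 563.3 to 889.3 in DBAxFVB F1. The sums of these 3 lists did not overlap between the crosses, as those of the cohesin leads did not (138.9 and 126.7 in AKRxFVB F1, against 83.95 to 95.83 in DBAxFVB F1). A linear sum is led by its brightest genes, and the median deviations overlapped for 2 of the lists. The B cell median was -0.06 on AKRxFVB F1 array 2, against 0.08 on DBAxFVB F1 array 3. The T cell median was 0.09 on AKRxFVB F1 array 1, against 0.125 on DBAxFVB F1 array 1. Without overlap and higher in AKRxFVB F1 were 3 of 11 B cell, 5 of 10 T cell and 2 of 9 monocyte markers (11.1% of all non-control probe sets). In DBAxFVB F1 1 monocyte marker was. Among these lists the B cell sum on AKRxFVB F1 array 1 was above that on array 2, while the T cell sums were close to each other on those arrays.

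The sums overlapped for the other cell type lists. Neutrophil markers summed to 454.8 and 281 in AKRxFVB F1, against 250.2 to 423.6 in DBAxFVB F1, with 3 of 9 tested members higher, or 1 after quantile and 4 after cyclic loess normalization. Platelet markers summed to 3531 and 7228 in AKRxFVB F1, against 1530 to 5471 in DBAxFVB F1 (9 of 10 higher, median 0.48, or 0.12 after quantile and 0.16 after cyclic loess normalization), and erythroid markers to 12660 and 14200 in AKRxFVB F1, against 12340 to 14150 in DBAxFVB F1 (5 of 9 higher, or 2 after quantile and 3 after cyclic loess normalization). Of these blood markers, 10 of 10 platelet and 9 of 10 erythroid markers lay above the array median on all arrays. Markers of cycling cells summed to 186.6 and 216.9 in AKRxFVB F1, against 131.2 to 206 in DBAxFVB F1 (3 of 6 higher). Heart muscle markers, which a cardiac puncture could bring, summed to 60.5 and 67.7 in AKRxFVB F1, against 65 to 91.6 in DBAxFVB F1, and 2 of 8 lay above the array median on all arrays. Of the 4 tested, 2 read higher in AKRxFVB F1, with a median of -0.34. Without overlap and higher in DBAxFVB F1 were 2 of 6 cycling cell, 2 of 4 heart muscle and 1 of 9 neutrophil markers (14.6% of all non-control probe sets). In AKRxFVB F1 1 neutrophil marker was, and 0 cycling cell or heart muscle markers were. No platelet or erythroid marker lay without overlap. No value on this scale is 0, so no marker can be called absent. The part of cell composition, brightness and RNA quality in the differences of the cohesin genes was not tested.

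**Figure D4:**
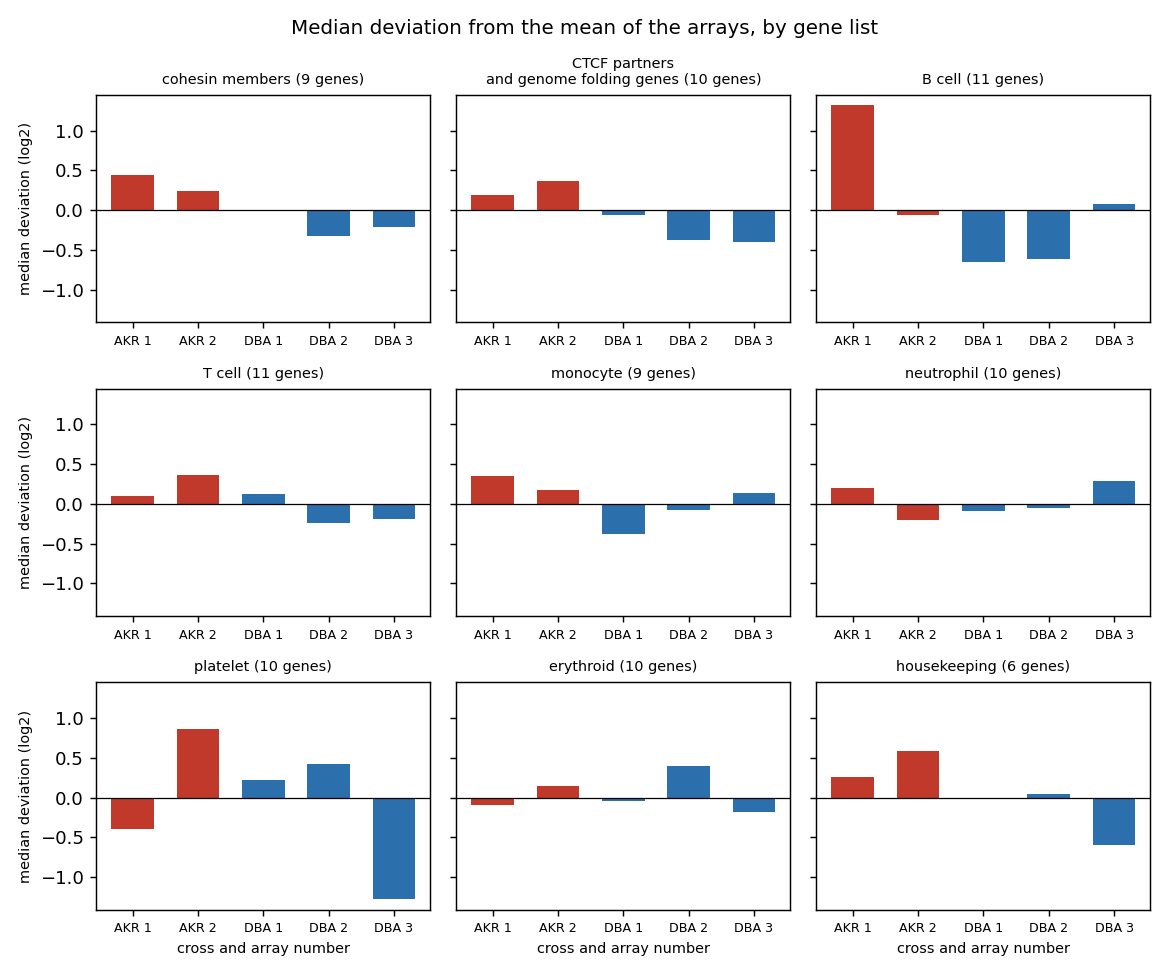
Median deviation (log2) of each gene list from its genes' means over the 5 arrays, by array, AKRxFVB F1 in red and DBAxFVB F1 in blue, with the number of genes in brackets. The cohesin leads are above 0 on both AKRxFVB F1 arrays and below it on the DBAxFVB F1 arrays, while the B cell list is raised mainly on AKRxFVB F1 array 1 and the platelet list is lowest on DBAxFVB F1 array 3.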

How the data were processed

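Whole-blood RNA of 5 samples was amplified with a kit of 2 cycles, labelled with biotin and hybridised to 1 array each, per the labels' protocols. The deposited table holds normalized values, which were read as log2 expression from their range of 1.29 to 14.8. The tools named in the submitters' processing notes are MAS5 and RMA, and which gave these values is not given in the sources used here. The background correction is thus not known, and differences of dim probe sets could be understated or overstated by it. Samples were grouped by the cross in their labels, with replicate numbers from the titles. No column lay outside the 5 samples.

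Of 45101 probe sets, 64 controls were left out. The platform annotation gave 1 symbol to 34958, several to 932 and none to 9211, and of the 34754 matched by gene identifier to RefSeq (GRCm38.p6) 0 symbols differed. Probe sets with a mean at or above the median of 2.51 (22519) went into limma 3.58.1 (R 4.3.3; lmFit and eBayes with trend on the cross alone, 3 residual degrees of freedom, two-sided), checked on simulated data. Values of members under the filter came from the fit without a filter, or from the same design and weights in the alternatives. An exact permutation test of 2 against 3 arrays cannot give a p under 0.1 and was not used. The members, lists and naming rule were chosen with earlier results of these data known. Named were all members and, since none of the pathway genes passed, the 3 with the smallest p per list, plus the 5 genes nearest to the median lead profile. Mau2, Wapl, Maz and Hprt were named after their values were seen, for their roles. Alternatives were 3 other normalizations, other filters, other variance settings, array weights, a block for the replicate number, omission of each array and the mean of a gene's probe sets. Python 3.11.15 with pandas 2.3.3 and matplotlib 3.10.9 made the tables and plots.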

Additional observations from a re-analysis of the deposited data

How the results depend on the processing

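The count of probe sets past the threshold was 0 under the 14 alternatives, as was that of other pathway genes. At an unadjusted p below 0.05 the count was 2337, against 3880 without a filter, 1299 with the filter at the 75th percentile and 1243 without AKRxFVB F1 array 1. The median difference of the 9 lead probe sets, 0.43, ranged from 0.36 to 0.60 with 1 array left out and from 0.38 to 0.48 under the other normalizations, was 0.17 with the mean of all probe sets of each gene, and was 0.14 with lead probe sets chosen by the DBAxFVB F1 mean alone, an alternative added after seeing the data. The count of lead probe sets higher in AKRxFVB F1, 8 of 9, ranged from 6 to 9 with 1 array left out. Member probe sets without overlap numbered 12, 11 after cyclic loess normalization and 13 to 18 with 1 array left out, where fewer arrays make overlap rarer. Of the 9 lead probe sets 6 and of all 29 member probe sets 16 kept their sign in 14 alternatives, of which the filters and variance settings leave a difference unchanged by construction; the lead probe sets that did not were those of Stag1, Nipbl and Pds5b. Rad21 (1416161_at) ranged from 1.12 to 1.30, Stag2 (1421849_at) from 1.08 to 1.385 and Ctcf (1418330_at) from 1.02 to 1.24 over those 14. With the replicate number as a block the median was 0.40, the counts of calls were 0 and no call changed. DBAxFVB F1 array 3 has no partner there, so the block gave the same differences as leaving it out. Deviations from the group means correlated at -0.26 for number 1 and 0.17 for number 2. The deviations of the 2 AKRxFVB F1 arrays mirror each other, so these values cannot decide on pairing. The numbers are thus not shown to pair the samples. With 5 arrays the precision of all values is limited, and low values near 2 have no stated limit of detection.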
